A study of Homo sapiens with 6 samples.

Results

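The genes described here are 36 components and regulators of the lysosome, picked by symbol from the 56637 symbols counted in each library. They comprise the membrane protein OSTM1 and its partner CLCN7, 5 other lysosomal membrane proteins, 8 cathepsins and 15 further hydrolases and their cofactors. The transcription factors TFEB and TFE3 and 4 subunits of the vacuolar proton pump (V-ATPase) complete the set. All 36 were found, and all 36 had enough counts to be tested. RNA came from MM.1S, an established human multiple myeloma line, after lentiviral delivery of an shRNA and puromycin selection of the infected cells. In 3 libraries the shRNA was directed against KDM6B, a demethylase of lysine 27 on histone H3 (shKDM6B), and in 3 control libraries against luciferase (shLuc). Cells of both groups were thus transduced and drug-selected, and the labels name no second hairpin against KDM6B. Effects of KDM6B loss and other effects of that hairpin cannot be told apart.

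Lysosomes are acidic organelles that degrade proteins, lipids and sugars delivered by endocytosis and autophagy. The V-ATPase pumps protons into the lumen, and the chloride-proton exchanger CLC-7, encoded by CLCN7, carries chloride in exchange for protons. OSTM1 is the accessory subunit that CLC-7 needs for its stability, and loss of either protein causes osteopetrosis in humans and mice. The MiT factors TFEB and TFE3 bind a palindrome built on CACGTG, known as the CLEAR element, in the promoters of many lysosomal genes. They are held in the cytoplasm when the kinase mTORC1 is active on the lysosome surface. Plasma cells, from which myeloma arises, secrete large amounts of antibody and depend on proteasomal and lysosomal degradation.

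Library totals were 7952156 to 9848351 counts in shKDM6B and 7338393 to 8996159 counts in shLuc. KDM6B itself stood at 61.1% of its shLuc level in shKDM6B (log2 fold change -0.71, SE 0.073, adjusted p = 7.72e-08, edgeR quasi-likelihood test). All 10 plasma cell markers examined were detected, with a summed level of 2913 to 3280 CPM in shKDM6B and 3105 to 3407 CPM in shLuc. Of these, CD38 (log2 fold change -0.45, SE 0.052), TNFRSF17 (-0.37, SE 0.048) and POU2AF1 (-0.14, SE 0.052) were lower, PRDM1 was higher (0.15, SE 0.049), and 6 did not pass. In all 40% were called, near the 39.1% of all tested genes. The groups overlapped for POU2AF1. Its call ended with scaling on genes under 0.03 counts per base of exon (adjusted p = 0.429, edgeR). It also ended with some single libraries left out (up to 0.180). The PRDM1 call ended with the same scaling (0.0699) and with some single libraries left out (up to 0.126, edgeR). Of 13 macrophage and osteoclast markers, whose cells are rich in lysosomes, 10 had too few counts to be tested. Their summed level was 59.1 to 64.2 CPM in shKDM6B and 65.6 to 72.1 CPM in shLuc, nearly all of it NFATC1, while CD163 and CALCR had 0 counts in every library. Keratin and epithelial markers summed to 1.82 to 45.2 CPM in shKDM6B and 2.94 to 11.8 CPM in shLuc. The edgeR test called 3 of the 4 tested (KRT5, KRT14 and KRT19) higher, where 20.1% of all tested genes were. The groups overlapped for all 3, DESeq2 called none of them (adjusted p of 0.598 for KRT5, 0.153 for KRT14 and 0.393 for KRT19), and the KRT5 log2 fold change ran from 1.23 to 4.73 when 1 library was left out. The KRT5 call ended without shKDM6B replicate 2, shLuc replicate 2 or shLuc replicate 3, and the KRT19 call when any of shLuc replicate 2, shKDM6B replicate 1 or shKDM6B replicate 2 was left out. EPCAM, the other tested gene, went the other way and did not pass (edgeR log2 fold change -0.83, SE 0.35, adjusted p = 0.0680). It had 7, 5 and 13 counts in shKDM6B and 11, 12 and 20 in shLuc, and its scaled groups did not overlap. Apart from those of EPCAM, the epithelial counts came mainly from shKDM6B replicates 1 and 2 and shLuc replicate 1. Their part in the results below was not tested, and calls that ended or arose without those 3 libraries are named beside each gene. For PRDM1 the call ended without them, at a log2 fold change of 0.11. In bulk RNA, fewer cells of a kind and less RNA per cell cannot be told apart.

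KDM6B knockdown did not move the 36 genes in one direction. OSTM1 was about 3-fold higher, the TRPML1 channel gene MCOLN1 was modestly higher, and CTSZ, CTSS, LAMP1 and 3 V-ATPase subunits were lower. The factors TFEB and TFE3 were slightly higher, by calls that DESeq2 did not give. At an adjusted p under 0.05 in the edgeR test, 8 of the 36 were higher, 8 lower and 20 did not pass. Over all 13839 genes tested, 39.1% passed in either direction, 20.1% as higher and 18.9% as lower. The lysosome genes passed at 44.4%, close to that background. The scaled levels of the groups did not overlap for 19 of the 36, 8 higher and 11 lower, beside 48.4% of all tested genes, 24.5% higher and 23.9% lower. Their median log2 fold change was -0.026, beside -0.0053 over all tested genes. Most of the changes were small. Only OSTM1 reached 1.5-fold as higher, where 3.97% of all tested genes did, and CTSZ and ATP6V0D1 reached it as lower, where 5.41% did.

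**Figure D1:**
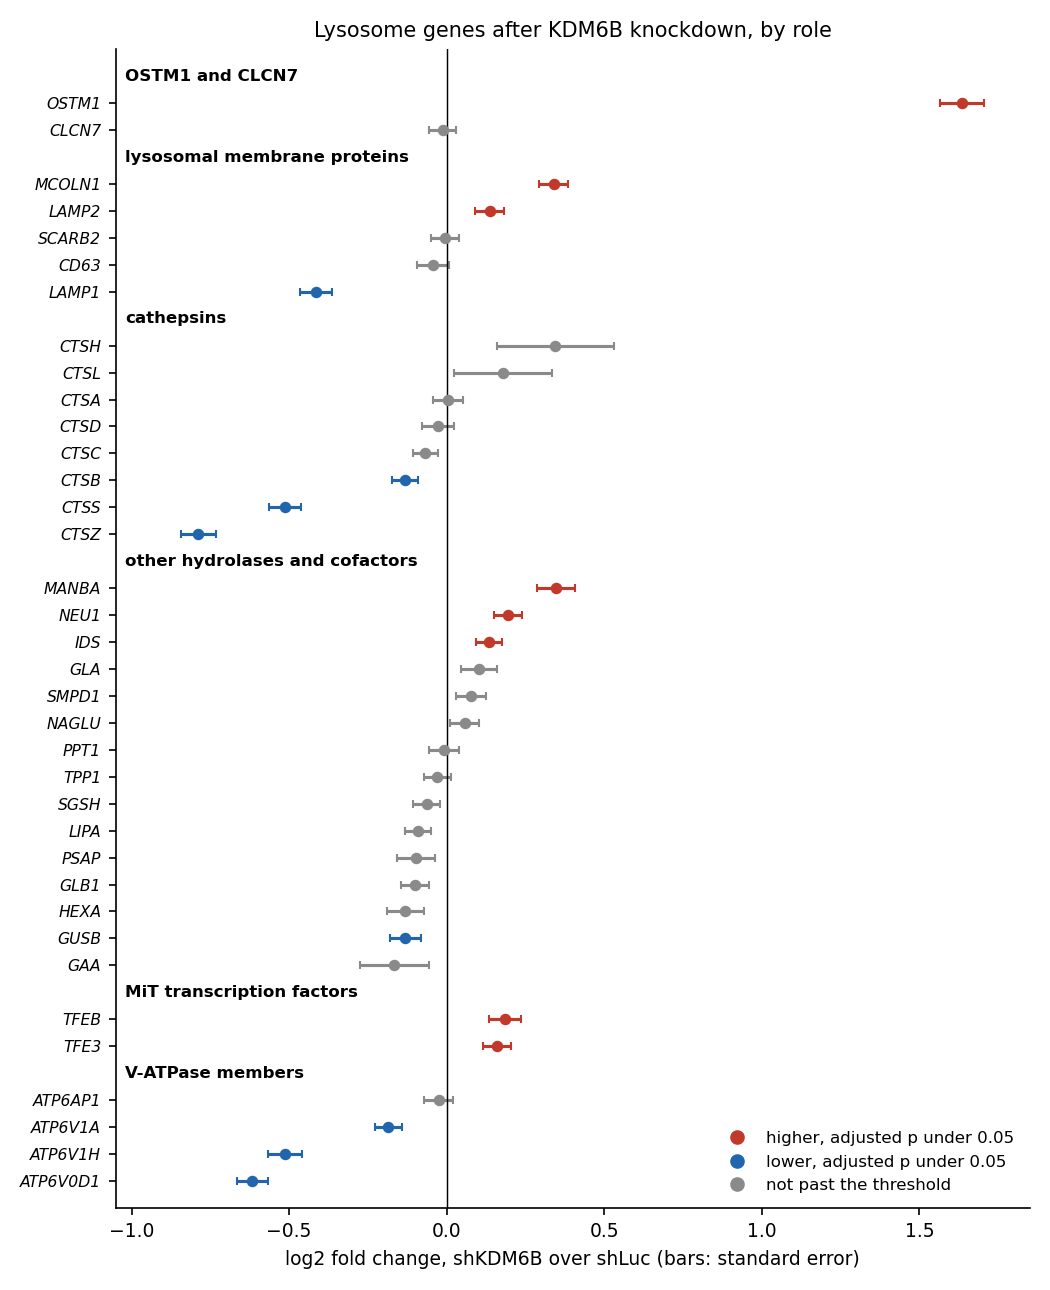
Log2 fold changes of the 36 lysosome genes, shKDM6B over shLuc, grouped by role (horizontal axis, log2 scale; points are edgeR estimates and bars their standard errors). OSTM1 stands at 1.64 and CTSZ at -0.79, and the other 34 genes lie between these values.

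OSTM1 was about 3-fold higher, and CLCN7 did not pass the test. OSTM1 had raw counts of 423, 460 and 572 in shKDM6B replicates 1 to 3, against 131, 159 and 161 in shLuc replicates 1 to 3. Every shKDM6B library lay well above every shLuc library. The level was 55.5 ± 2.0 CPM in shKDM6B and 17.9 ± 0.14 CPM in shLuc (SD, n = 3 each), a 3.11-fold difference (edgeR log2 fold change 1.64, SE 0.070, adjusted p = 1.47e-13). The shLuc SD is smaller than counting noise alone would give at such counts, so it does not measure how well libraries repeat. Ranked from the most raised to the most lowered, OSTM1 was number 29 of the 13839 genes tested. The log2 fold change ran from 1.61 to 1.69 over 14 alternative settings, and was 1.69 without the 3 libraries that held keratin counts.

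CLCN7 had raw counts of 1399, 1435 and 1760 in shKDM6B and 1305, 1583 and 1582 in shLuc. The 2 groups overlapped, at 176 ± 3.7 CPM in shKDM6B and 177 ± 2.7 CPM in shLuc (SD, n = 3 each; edgeR log2 fold change -0.013, SE 0.041, adjusted p = 0.830). The ratio of both genes within a library does not depend on scaling. There were 30.2, 32.1 and 32.5 OSTM1 counts per 100 CLCN7 counts in the shKDM6B libraries, and 10.0, 10.0 and 10.2 in the shLuc libraries. Per kilobase of exon, the OSTM1 level was 10.4 CPM in shKDM6B and 3.36 CPM in shLuc, and the CLCN7 level 21.6 CPM in shKDM6B and 21.9 CPM in shLuc. OSTM1 thus remained below its partner in transcript level per length in both groups. The annotated exons of OSTM1 overlapped those of no other gene in GENCODE 29. Of the CLCN7 exon bases, 13.8% and 2.25% lay also in exons of 2 antisense genes, whose reads cannot be told apart from those of CLCN7 without strand.

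**Figure D2:**
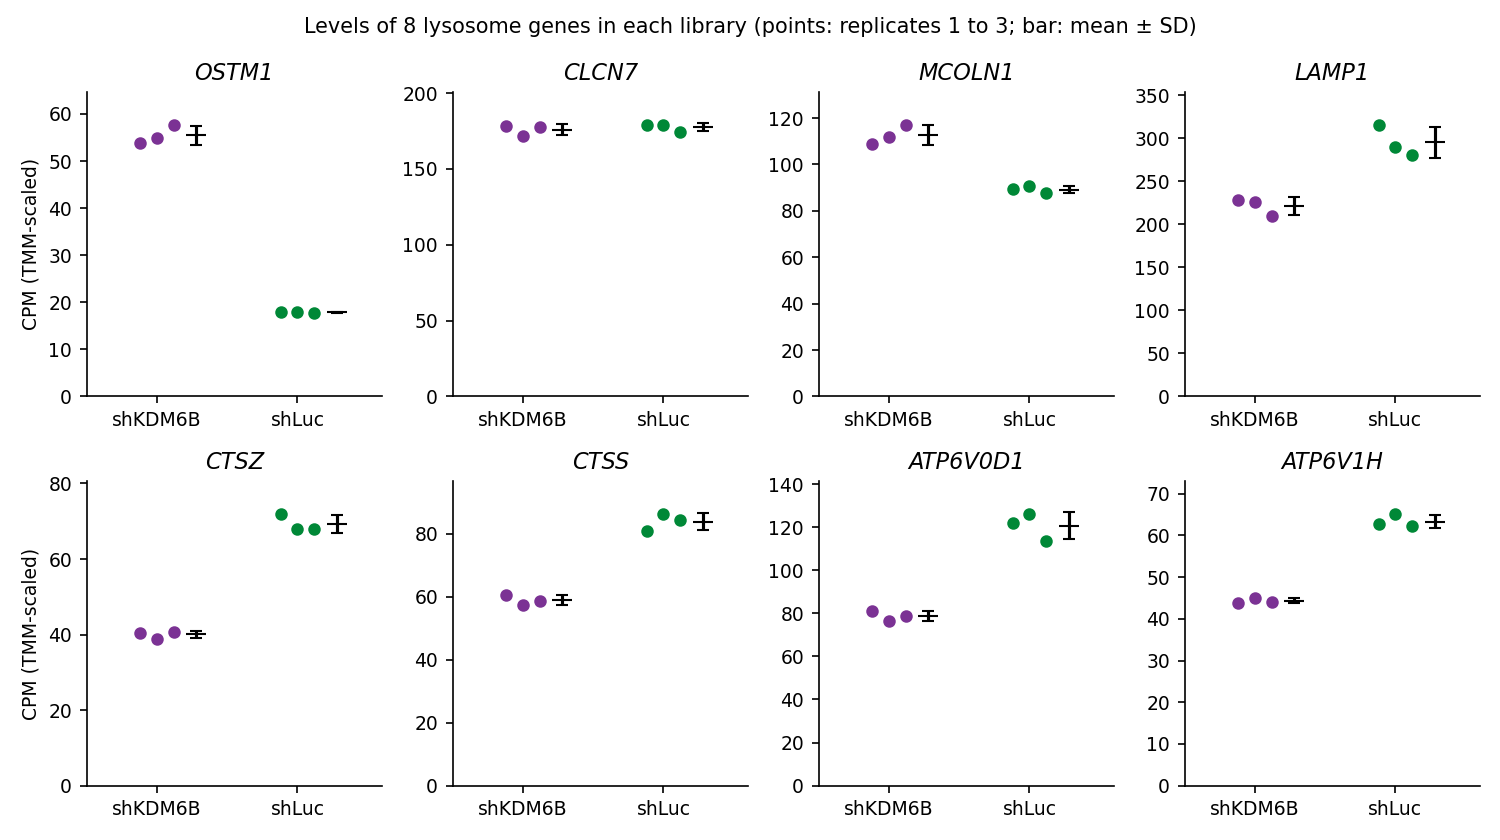
TMM-scaled CPM of 8 lysosome genes in each library (vertical axes, CPM, from 0; points are replicates, and the mark beside them is the mean with its SD). OSTM1 averages 55.5 CPM in shKDM6B and 17.9 CPM in shLuc, and CLCN7 overlaps between the groups.

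Of the genes beside OSTM1 on chromosome 6, none of the 5 tested was called higher, where 20.1% of all tested genes were. So few genes cannot be set apart from that share. In RefSeq gene order SEC63, SCML4 and SOBP lie on one side of it and NR2E1, SNX3 and AFG1L on the other. SEC63, a component of the protein import machinery of the endoplasmic reticulum, averaged 137 CPM in shKDM6B and 184 CPM in shLuc and was lower (log2 fold change -0.43, SE 0.046, adjusted p = 1.38e-07, edgeR). SCML4 was also lower, on few counts: 8, 7 and 9 in shKDM6B, against 25, 29 and 18 in shLuc (log2 fold change -1.62, SE 0.31). SNX3, a sorting nexin of early endosomes, had a log2 fold change of 0.029 (SE 0.052) and did not pass. SOBP (0.034, SE 0.20) and AFG1L (0.20, SE 0.18; listed as LACE1) did not pass either, and NR2E1 had 0 counts in every library.

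The core of the CLEAR element was searched in the promoters of these genes. RefSeq windows running from 250 bases before to 50 bases after the start site (GRCh38.p14) were available for 26 of the 36 genes. The 3 motifs searched read the same on either strand, and each longer one contains the shorter. CACGTG occurred in 9 of the 26 windows (34.6%), against 7.43% of 27305 promoters in the table and 10.4% of the 9292 promoters of tested genes. TCACGTGA occurred in 5 of 26 (19.2%), against 1.04% of all and 1.97% of tested promoters. The longest, TCACGTGA with a G before it and a C after it, occurred in 2 of 26, GAA and MCOLN1 (7.69%), against 0.381% of all and 0.807% of tested promoters. CACGTG was present in 2 of 6 members called higher, 2 of 4 called lower and 5 of 16 that did not pass. TCACGTGA was present in 1 of 6, 2 of 4 and 2 of 16, and the longest motif in 1 of 6, 0 of 4 and 1 of 16. The 200 bases before the start sites of 5 genes are shown to compare the promoter of OSTM1 with those of its partner CLCN7, of the raised MCOLN1 and of the lowered LAMP1 and ATP6V0D1. They are written 5′ to 3′ in the direction of the gene, with each CACGTG in capitals.
OSTM1 (chr6:108074742-108074941, minus strand): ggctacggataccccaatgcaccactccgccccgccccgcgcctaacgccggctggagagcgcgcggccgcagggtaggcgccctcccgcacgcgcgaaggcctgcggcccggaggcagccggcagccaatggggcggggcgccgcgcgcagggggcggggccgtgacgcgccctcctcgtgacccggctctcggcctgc
CLCN7 (chr16:1475029-1475228, minus strand): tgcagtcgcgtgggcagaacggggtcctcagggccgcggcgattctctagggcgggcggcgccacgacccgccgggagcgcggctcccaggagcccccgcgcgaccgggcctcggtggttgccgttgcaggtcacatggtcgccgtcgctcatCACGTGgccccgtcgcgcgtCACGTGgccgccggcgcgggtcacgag
MCOLN1 (chr19:7522424-7522623, plus strand): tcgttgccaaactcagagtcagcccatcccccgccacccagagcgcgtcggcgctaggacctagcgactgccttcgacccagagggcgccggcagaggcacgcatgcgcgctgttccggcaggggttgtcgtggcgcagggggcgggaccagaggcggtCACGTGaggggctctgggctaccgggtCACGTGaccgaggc
LAMP1 (chr13:113297039-113297238, plus strand): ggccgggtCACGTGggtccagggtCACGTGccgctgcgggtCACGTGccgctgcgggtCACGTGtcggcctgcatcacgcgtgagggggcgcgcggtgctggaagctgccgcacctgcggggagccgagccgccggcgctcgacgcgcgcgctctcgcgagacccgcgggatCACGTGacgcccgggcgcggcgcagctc
ATP6V0D1 (chr16:67481158-67481357, minus strand): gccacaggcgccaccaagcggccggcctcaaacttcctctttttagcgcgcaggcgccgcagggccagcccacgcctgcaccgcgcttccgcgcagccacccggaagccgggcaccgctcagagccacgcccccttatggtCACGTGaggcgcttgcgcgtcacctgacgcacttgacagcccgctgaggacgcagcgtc
The OSTM1 window held no CACGTG, like most of the 26 windows. Those of the lowered CTSZ and GUSB and the raised IDS, TFEB and TFE3 also held none. The other promoters shown here all held it, so they do not stand for the set. The CLCN7 stretch held 2 copies. LAMP1, which was lower, had 5 copies in the stretch shown and 6 in its whole window, and MCOLN1, which was higher, had 2. A match is a description of the letters in these windows and says nothing about binding in these cells.

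The MiT factors themselves were slightly higher. TFEB had raw counts of 584, 581 and 716 in shKDM6B and 464, 575 and 556 in shLuc. After scaling, the groups did not overlap, and the level was 72.0 ± 2.5 CPM in shKDM6B and 63.3 ± 1.9 CPM in shLuc (SD, n = 3 each; edgeR log2 fold change 0.19, SE 0.051, adjusted p = 0.00538). TFE3 had raw counts of 916, 955 and 1180 in shKDM6B and 796, 930 and 904 in shLuc, and again the scaled groups did not overlap. Its level was 117 ± 2.5 CPM in shKDM6B and 105 ± 4.9 CPM in shLuc (SD, n = 3 each; edgeR log2 fold change 0.16, SE 0.046, adjusted p = 0.00773). These calls were not firm. The DESeq2 Wald test gave adjusted p values of 0.0629 for TFEB and 0.0633 for TFE3, TFEB missed the threshold without the 3 libraries with keratin counts (0.0539), and TFE3 missed it without shLuc replicate 3 (0.0656).

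Among the 5 other lysosomal membrane proteins, MCOLN1 and LAMP2 were higher, LAMP1 was lower, and CD63 and SCARB2 did not pass. These calls make up 60%, beside 39.1% of all tested genes. MCOLN1 encodes the calcium-releasing channel TRPML1. Its raw counts were 856, 935 and 1161 in shKDM6B and 650, 804 and 794 in shLuc. All shKDM6B levels lay above all shLuc levels, at 113 ± 4.2 CPM in shKDM6B and 89.2 ± 1.7 CPM in shLuc (SD, n = 3 each; edgeR log2 fold change 0.34, SE 0.045, adjusted p = 3.09e-06).

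LAMP1 and LAMP2, the most abundant glycoproteins of the lysosomal membrane, moved in opposite directions. LAMP1 had raw counts of 1799, 1896 and 2076 in shKDM6B and 2302, 2565 and 2546 in shLuc. Each shKDM6B library was below each shLuc library even before scaling, with 222 ± 11 CPM in shKDM6B and 295 ± 18 CPM in shLuc (SD, n = 3 each; edgeR log2 fold change -0.41, SE 0.050, adjusted p = 8.50e-07). LAMP2 had raw counts of 1533, 1738 and 1936 in shKDM6B and 1246, 1667 and 1669 in shLuc. Its difference was small, at 199 ± 7.2 CPM in shKDM6B and 181 ± 8.9 CPM in shLuc (SD, n = 3 each; edgeR log2 fold change 0.14, SE 0.046, adjusted p = 0.0216). LAMP2 missed the threshold by DESeq2 (adjusted p = 0.0682), without shKDM6B replicate 2 (0.157), without shLuc replicate 1 (0.122) and without the 3 libraries with keratin counts (0.378). The tetraspanin CD63 averaged 111 CPM in shKDM6B and 115 CPM in shLuc. SCARB2, which encodes LIMP-2, the receptor that carries glucocerebrosidase to lysosomes, averaged 337 CPM in shKDM6B and 338 CPM in shLuc.

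**Figure D3:**
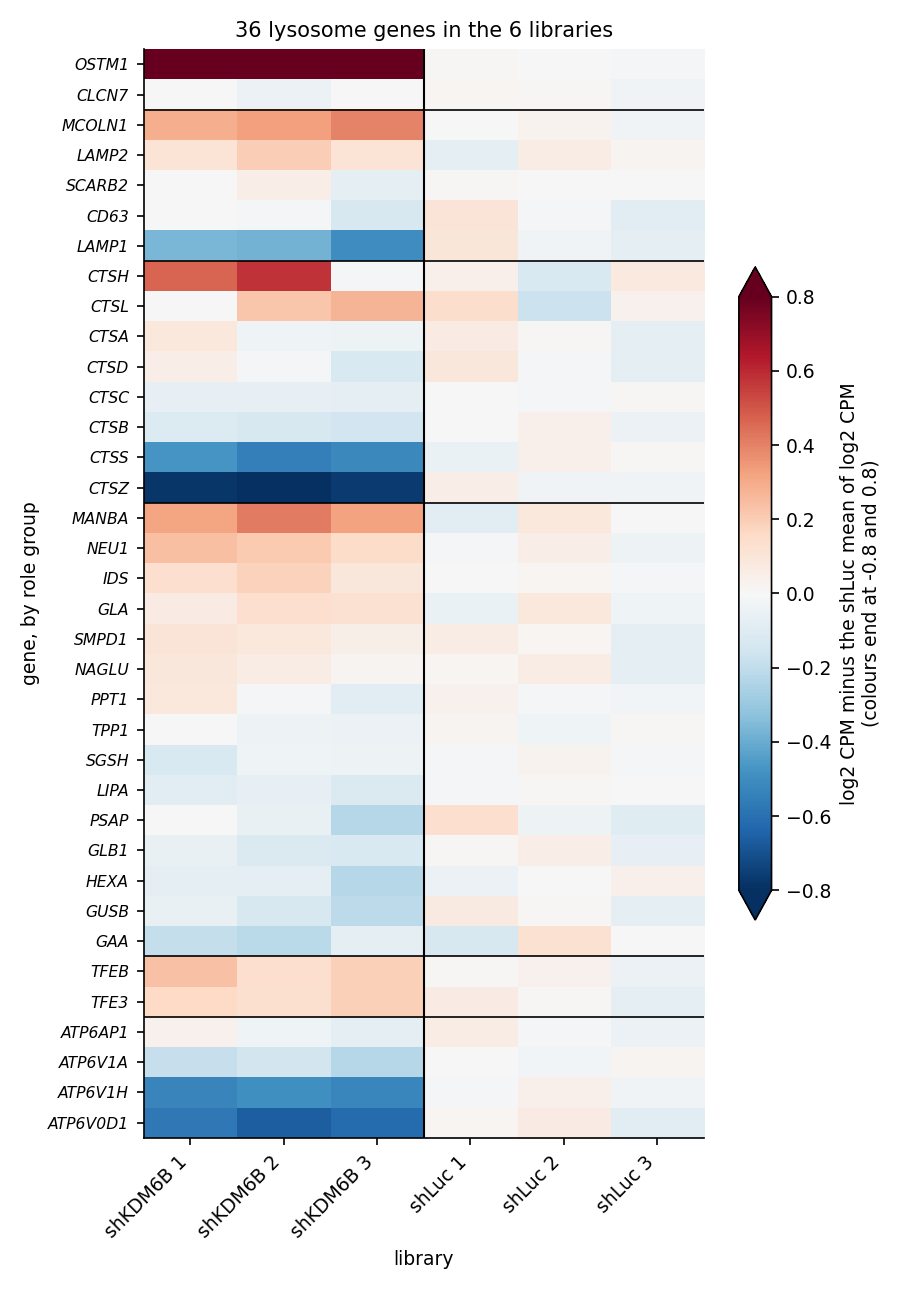
Level of each of the 36 genes in each library, as log2 CPM minus the shLuc mean of log2 CPM (colour scale in log2 units, ending at -0.8 and 0.8; the black vertical line parts shKDM6B on the left from shLuc on the right). OSTM1 is beyond the red end in all 3 shKDM6B libraries, and CTSZ, CTSS, ATP6V1H and ATP6V0D1 are blue in all 3.

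Of the 8 cathepsins, CTSZ, CTSS and CTSB were lower and none was higher. These calls make up 37.5%, near the 39.1% of all tested genes. At an unadjusted p under 0.05 the count of higher ones was also 0, and DESeq2 called 0. CTSZ, a carboxypeptidase also known as cathepsin X, showed the largest fall among the 36 genes under the edgeR fit. Its raw counts were 318, 326 and 403 in shKDM6B, against 524, 602 and 617 in shLuc. The groups lay far apart, with 40.03 ± 0.94 CPM in shKDM6B, 57.9% of the 69.3 ± 2.3 CPM in shLuc (SD, n = 3 each; edgeR log2 fold change -0.79, SE 0.055, adjusted p = 2.00e-10).

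CTSS, the protease that trims the invariant chain during antigen presentation, had raw counts of 475, 480 and 581 in shKDM6B and 589, 764 and 764 in shLuc. After scaling the groups did not overlap, at 58.8 ± 1.6 CPM in shKDM6B and 83.8 ± 2.7 CPM in shLuc (SD, n = 3 each; edgeR log2 fold change -0.51, SE 0.049, adjusted p = 2.71e-08). CTSB, a broad cysteine protease, had raw counts of 1516, 1593 and 1856 in shKDM6B and 1523, 1897 and 1832 in shLuc. Its fall was slight (190.2 ± 2.8 CPM in shKDM6B and 208 ± 6.2 CPM in shLuc, SD, n = 3 each; edgeR log2 fold change -0.13, SE 0.042, adjusted p = 0.0164). It missed the threshold when scaled on genes of low read density, those under 0.03 counts per base of exon (adjusted p = 0.412), and when shKDM6B replicate 2 (0.0588), shKDM6B replicate 3 (0.0534) or shLuc replicate 2 (0.102) was left out.

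The aspartic protease gene CTSD averaged 136 CPM in shKDM6B and 138 CPM in shLuc. CTSA, whose product protects beta-galactosidase and neuraminidase, averaged 152 CPM in shKDM6B and 151 CPM in shLuc, and CTSC, which activates granule proteases, 183 CPM in shKDM6B and 192 CPM in shLuc. CTSH and CTSL were barely expressed. CTSH had 52, 60 and 47 counts in shKDM6B and 36, 39 and 46 in shLuc, and the groups overlapped (edgeR log2 fold change 0.34, SE 0.19, adjusted p = 0.152). It passed only without shKDM6B replicate 3 (log2 fold change 0.52, adjusted p = 0.0325). CTSL had 50, 62 and 76 counts in shKDM6B and 51, 50 and 59 in shLuc. In a later annotation than the one the files may rest on (GENCODE 29), 17.7% of the exon bases of CTSA and 41.7% of those of CTSD lie also in exons of an overlapping gene.

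Of the 15 other hydrolases and cofactors, 3 were higher, 1 was lower and 11 did not pass, 26.7% called beside 39.1% of all tested genes. MANBA, the beta-mannosidase, had raw counts of 413, 472 and 523 in shKDM6B and 290, 396 and 383 in shLuc. All shKDM6B libraries were above all shLuc libraries, with 53.9 ± 2.2 CPM in shKDM6B and 42.2 ± 2.5 CPM in shLuc (SD, n = 3 each; edgeR log2 fold change 0.35, SE 0.061, adjusted p = 8.43e-05). NEU1, the lysosomal sialidase, had raw counts of 1098, 1142 and 1294 in shKDM6B and 851, 1087 and 1044 in shLuc. The scaled groups did not overlap, at 136 ± 4.6 CPM in shKDM6B and 118 ± 4.0 CPM in shLuc (SD, n = 3 each; edgeR log2 fold change 0.20, SE 0.045, adjusted p = 0.00131). NEU1 missed the threshold without the 3 libraries with keratin counts (adjusted p = 0.105).

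IDS, the iduronate sulfatase of glycosaminoglycan breakdown, had raw counts of 1536, 1692 and 1881 in shKDM6B and 1293, 1595 and 1607 in shLuc (log2 fold change 0.13, SE 0.042, adjusted p = 0.0141, edgeR). Its call ended by DESeq2 (0.0576), with shKDM6B replicate 2 (0.116), shLuc replicate 2 (0.0513) or shLuc replicate 3 (0.0585) left out, and without the 3 libraries with keratin counts (0.259). GUSB, the beta-glucuronidase, was called lower with overlapping groups, from raw counts of 2048, 2082 and 2327 in shKDM6B and 2075, 2416 and 2337 in shLuc (log2 fold change -0.13, SE 0.049, adjusted p = 0.0379, edgeR). That call ended under 6 of 14 alternatives, with adjusted p values up to 0.458. GUSB also has many pseudogene copies, and GUSBP1 alone averaged 80.5 counts a library, so its counts are uncertain.

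The 11 hydrolase and cofactor genes that did not pass had log2 fold changes between -0.17, for the acid alpha-glucosidase gene GAA, and 0.10, for the alpha-galactosidase gene GLA. PSAP, the precursor of the saposins that present sphingolipids to their hydrolases, had the most counts of the 36 genes. It averaged 451 ± 36 CPM in shKDM6B and 483 ± 41 CPM in shLuc (SD, n = 3 each), overlapping groups (adjusted p = 0.221, edgeR). Without the 3 libraries with keratin counts, PSAP was called lower (log2 fold change -0.16, adjusted p = 0.00470), as was HEXA, a subunit gene of beta-hexosaminidase (-0.25, adjusted p = 0.0280), which had a log2 fold change of -0.13 over all libraries. The replicate block also gave a call for PSAP (adjusted p = 0.0152). Per kilobase of exon PSAP was also the highest, at 139 CPM in shKDM6B and 149 CPM in shLuc, followed by GUSB at 62.1 CPM in shKDM6B and 68.1 CPM in shLuc. The lowest was CTSH, at 1.05 CPM per kilobase in shKDM6B and 0.816 in shLuc. The ceroid lipofuscinosis genes TPP1 (log2 fold change -0.030, SE 0.042) and PPT1 (-0.0078, SE 0.047) did not pass. In GENCODE 29, 23.4% of the exon bases of PPT1 also lie in exons of CAP1 on the opposite strand, and the library kit, as far as its name shows, does not mark strand.

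Of the 4 V-ATPase subunits, 3 were lower and 1 did not pass. These calls make up 75%, beside 39.1% of all tested genes in either direction and 18.9% as lower. ATP6V0D1, a subunit of the membrane-embedded proton channel sector, had raw counts of 636, 640 and 778 in shKDM6B and 889, 1117 and 1032 in shLuc. Every shKDM6B count was below every shLuc count, and the level was 78.6 ± 2.2 CPM in shKDM6B, 65.2% of the 121 ± 6.3 CPM in shLuc (SD, n = 3 each; edgeR log2 fold change -0.62, SE 0.049, adjusted p = 1.22e-09). ATP6V1H, a regulatory subunit of the cytosolic ATP-hydrolysing sector, had raw counts of 345, 377 and 437 in shKDM6B and 456, 577 and 564 in shLuc. These groups did not overlap either, at 44.4 ± 0.61 CPM in shKDM6B and 63.3 ± 1.6 CPM in shLuc (SD, n = 3 each; edgeR log2 fold change -0.51, SE 0.054, adjusted p = 9.88e-08).

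ATP6V1A, the catalytic subunit, had raw counts of 1722, 1880 and 2104 in shKDM6B and 1812, 2170 and 2287 in shLuc. It was lower by a smaller amount (219 ± 6.1 CPM in shKDM6B and 248.6 ± 3.5 CPM in shLuc, SD, n = 3 each; edgeR log2 fold change -0.19, SE 0.043, adjusted p = 0.00137) and missed the threshold when scaled on genes of low read density (adjusted p = 0.166). ATP6AP1, an accessory subunit of pump assembly, averaged 212 CPM in shKDM6B and 216 CPM in shLuc and did not pass.

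Of 21 other V-ATPase subunits in the list, 17 were tested, 7 were lower, 1 was higher and 9 did not pass. In all 47.1% were called, beside 39.1% of all tested genes, of which 18.9% were lower and 20.1% higher. The B2 subunit gene ATP6V1B2 averaged 97.1 ± 0.76 CPM in shKDM6B and 142 ± 3.6 CPM in shLuc (SD, n = 3 each; edgeR log2 fold change -0.55, SE 0.043, adjusted p = 9.52e-10). ATP6V0A1 (-0.62), ATP6V1C2 (-0.94) and ATP6V1C1 (-0.25) were also lower, while ATP6V0A2, another isoform of the subunit that steers the pump to its membrane, was higher (0.29, SE 0.066, adjusted p = 0.00133). With DESeq2 the list had 4 lower and 1 higher. Over all genes DESeq2 called 1855 lower and 1966 higher, beside 2622 and 2783 in the main fit.

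Of 28 other lysosomal membrane proteins tested, 15 were higher, 3 were lower and 10 missed the threshold. In all 64.3% were called, beside 39.1% of all tested genes, of which 20.1% were higher and 18.9% lower. The median log2 fold change was 0.16, beside -0.0053 over all tested genes. The counts of higher genes were 16 when scaled on genes of low read density and 13 by DESeq2. Over all genes, 3125 were higher with scaling on genes of low read density and 1966 by DESeq2, beside 2783 in the main fit. The metal ion transporter SLC11A2 averaged 121 ± 3.6 CPM in shKDM6B and 73.7 ± 2.0 CPM in shLuc (SD, n = 3 each; edgeR log2 fold change 0.71, SE 0.046, adjusted p = 6.79e-11). LAPTM4A (0.60, SE 0.051) and SIDT2 (0.48, SE 0.058) were higher. NPC1, which exports cholesterol from lysosomes, was lower, at 53.9 ± 3.3 CPM in shKDM6B and 91.3 ± 2.3 CPM in shLuc (SD, n = 3 each; edgeR log2 fold change -0.76, SE 0.052, adjusted p = 1.80e-10).

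Among 31 further hydrolases and cofactors tested, 6 were higher, 10 lower and 15 did not pass (51.6% called, beside 39.1% of all tested genes). NAAA, an acid amidase of lipid mediators (0.65, SE 0.056), and PCYOX1, which degrades prenylcysteines (0.62, SE 0.044), were higher. The cathepsin gene CTSO (-0.46, SE 0.047) and LGMN, the asparaginyl endopeptidase that processes cathepsins (-0.33, SE 0.049), were lower. Of 5 tested relatives of CLCN7, 60% were called, beside 39.1% of all tested genes. CLCN2 (0.56, SE 0.072) and CLCN4 were higher. CLCN4 rested on 36, 20 and 43 counts in shKDM6B and 11, 19 and 11 in shLuc. CLCN6 was lower (-0.22, SE 0.074, adjusted p = 0.0227, edgeR), with overlapping groups, and without shLuc replicate 3 its log2 fold change was -0.10 (adjusted p = 0.238).

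**Figure D4:**
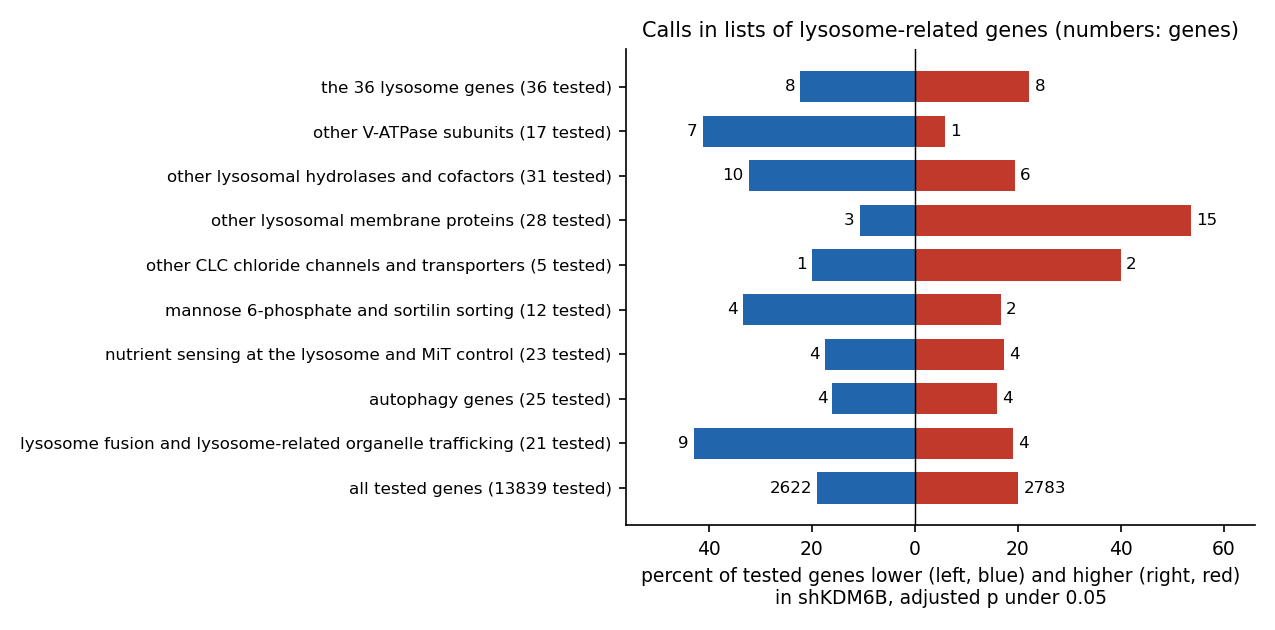
Share of tested genes called lower (blue, left) and higher (red, right) in shKDM6B at an adjusted p under 0.05, in percent, for the 36 lysosome genes, 8 related lists and all tested genes; numbers are genes. Other lysosomal membrane proteins have 15 higher and 3 lower, and other V-ATPase subunits 1 higher and 7 lower.

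Genes that sort enzymes to lysosomes included 2 higher and 4 lower among 12 tested (6 of 12 called, beside 39.1% of all tested genes). SORT1, the sorting receptor sortilin, averaged 84.3 ± 3.7 CPM in shKDM6B and 145 ± 3.8 CPM in shLuc (SD, n = 3 each; edgeR log2 fold change -0.78, SE 0.046, adjusted p = 1.83e-11). The AP-1 adaptor genes AP1M1 (-0.52, SE 0.053) and AP1G1 (-0.37, SE 0.042) were lower, and NAGPA, which uncovers the mannose 6-phosphate tag, was higher (0.49, SE 0.052). In the list of lysosome fusion and related organelle trafficking, 4 were higher, 9 lower and 8 did not pass (61.9% called, beside 39.1% of all tested genes). AP3M1, of the AP-3 adaptor (-0.57, SE 0.045), HPS1 (-0.40, SE 0.045), the tethering subunit VPS39 (-0.26, SE 0.043) and HPS4 (-0.22, SE 0.046) were lower. Over all genes DESeq2 called 1966 higher and 1855 lower, beside 2783 and 2622 in the main fit. By DESeq2 that list had 1 higher and 5 lower. Without the 3 libraries with keratin counts HPS4 missed the threshold, at a log2 fold change of -0.17.

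Of 23 genes of nutrient sensing at the lysosome, 4 rose, 4 fell and 15 missed the threshold (34.8% called, beside 39.1% of all tested genes). MITF, the third expressed MiT factor, averaged 22.2 ± 3.0 CPM in shKDM6B and 11.7 ± 1.5 CPM in shLuc (SD, n = 3 each; edgeR log2 fold change 0.92, SE 0.12, adjusted p = 1.66e-06). TFEC, the remaining family member, had 3, 3 and 1 counts in shKDM6B and 12, 15 and 17 in shLuc. On these few counts it was called lower (edgeR log2 fold change -2.64, SE 0.44, adjusted p = 4.60e-05). Of the tuberous sclerosis genes, which restrain mTORC1, TSC1 was lower (-0.46, SE 0.046) and TSC2 higher (0.38, SE 0.042), and MTOR itself was lower (-0.31, SE 0.049). DESeq2 called 2 of the list higher and 4 lower. Over all genes it called 1966 higher and 1855 lower, beside 2783 and 2622 in the main fit. Autophagy genes passed at 32.0%, beside 39.1% of all tested genes, with 4 of 25 higher and 4 lower. ATG9A (0.33, SE 0.042) and ULK1 (0.26, SE 0.052) were higher, and ATG13 (-0.49, SE 0.046) and GABARAPL1 (-0.68, SE 0.096) were lower. DESeq2 called 2 higher and 3 lower, where it called 1966 higher and 1855 lower over all genes, beside 2783 and 2622 in the main fit.

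Counts of densely covered genes grew less with library depth than those of sparse genes. The median of the 36 was 0.211 counts per base of exon, against 0.0849 over tested genes with a length, and 9 of the 36 had at least 0.3. Within shKDM6B the deepest library had 1.24 times the total of the shallowest, and within shLuc 1.23 times. The count of a gene with under 0.03 counts per base grew by a median factor of 1.35 in shKDM6B and 1.32 in shLuc between these libraries. At 1 count per base or more the factor was 1.07 in shKDM6B and 1.06 in shLuc. For PSAP, with 1.23 counts per base, it was 1.08 in shKDM6B and 1.06 in shLuc. The part of this in the calls of dense genes such as PSAP, CTSD and GUSB was not tested, and a missing call there does not show a stable level. OSTM1, with 0.0597 counts per base, was among the sparser of the set.

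**Figure D5:**
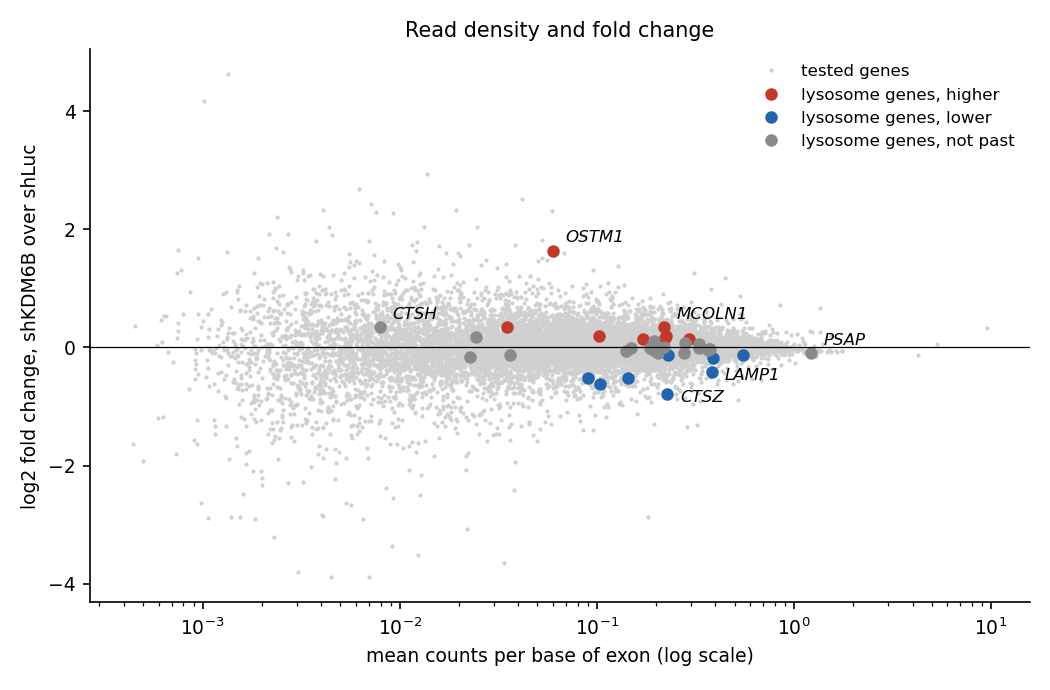
Log2 fold change, shKDM6B over shLuc (vertical axis), against mean counts per base of exon (horizontal axis, log scale) for tested genes with a known exon length (grey) and the 36 lysosome genes (coloured by call). PSAP is the densest of the 36 at 1.23 counts per base, and OSTM1 stands at 0.0597 with a log2 fold change of 1.64.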

How the data were processed

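Raw counts, whole numbers for 56637 symbols, were deposited by the authors for each library. The submitters' processing notes name STAR, featureCounts, DESeq and the build GRCh37 (hg19). The sources used here do not give versions, annotation, strand setting or the handling of duplicates. Their table of normalized values was not used, and 1 line per library whose name had become a date was left out. Separate cultures are not stated in the labels, so the spread behind the p-values may be technical. Library pairs within a group differed beyond counting noise over genes under 0.03 counts per base (chi-square per degree of freedom 1.08 to 1.33), so no pair was treated as 1 library deposited in duplicate. This does not show that they came from separate cultures.

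Counts were fitted with edgeR 4.0.16 in R 4.3.3: filterByExpr, TMM scaling, and the quasi-likelihood test with the group as the single term, on all 6 libraries. P-values were Benjamini-Hochberg adjusted over 13839 genes, with a threshold of 0.05. SE is that implied by the test statistic, and CPM is TMM-scaled. The fit was tested on simulated data. Exon lengths come from GENCODE 29 (GRCh38), another build than the files', for 91.3% of tested genes, and promoters from RefSeq (GRCh38.p14), taking the first window listed per symbol. No coordinates of the counted genes themselves are given. The genes, lists and rules were chosen with earlier results of these data known. Counts of every library are given for OSTM1, CLCN7, the MiT factors and up to 4 called members with the smallest p in each role group, and for CTSH and CTSL, chosen after their values were seen. From each related list up to 4 called genes with the smallest p are named. ATP6V0A2, TFEC, EPCAM and the neighbours of OSTM1 were likewise chosen after their values were seen. GLMP and JCHAIN were matched through older symbols. Alternatives were other scalings, filters, a replicate block, DESeq2 1.42.0, a threshold of 0.01 and left-out libraries.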

Additional observations from a re-analysis of the deposited data

How the results depend on the processing

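OSTM1 kept its direction and its call under every alternative run, as did MCOLN1, LAMP1, CTSZ, CTSS, MANBA, ATP6V0D1 and ATP6V1H. Of the 36 lysosome genes, 8 were called higher. The count was 4 by DESeq2 and 4 without the 3 libraries with keratin counts, where the lone shKDM6B library is assumed to vary like the others, and 6 to 9 when 1 library was left out. The 8 called lower became 5 with scaling on genes of low read density, 10 without the keratin libraries, 11 with upper-quartile scaling, and 6 to 9 when 1 library was left out. Scaling on genes of low read density moved the median over all genes by 0.046 (log2). It gave 3125 genes higher and 1908 lower (62.1% higher), beside 2783 and 2622 (51.5%). Upper-quartile scaling moved the median by -0.018 and gave 2514 higher and 2913 lower (46.3% higher). Over all genes 5405 passed, 3821 by DESeq2 and 3859 without the keratin libraries.

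Changes of sign concerned genes near 0 that passed in none of the settings. With scaling on genes of low read density the log2 fold change was 0.034 for CLCN7, 0.0034 for CD63, 0.043 for SCARB2, 0.021 for CTSD, 0.042 for PPT1, 0.018 for TPP1 and 0.022 for ATP6AP1. CTSA was at -0.014 with upper-quartile scaling. Without the keratin libraries CTSA was at -0.0089, CLCN7 at 0.010 and SNX3 at -0.035. Leaving out 1 library gave ranges of -0.031 to 0.00059 for CLCN7, -0.094 to 0.0027 for CD63, -0.039 to 0.030 for SCARB2, -0.039 to 0.032 for CTSA, -0.072 to 0.023 for CTSD, -0.052 to 0.038 for PPT1, -0.055 to 0.0042 for ATP6AP1, -0.16 to 0.16 for SOBP and -0.015 to 0.085 for SNX3. The causes were not tested.

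Same-numbered libraries of both groups did not deviate together throughout (correlations of 0.25, -0.080 and 0.21), so the numbers were not taken as pairs. Libraries of unlike number had correlations from -0.28 to 0.083, below the same-numbered values of replicates 1 and 3. Deviations from a mean of 3 are not independent, and pairing was not tested further. With the replicate block 6218 genes passed, OSTM1 had a log2 fold change of 1.64, 8 of the 36 were higher and 10 lower, GLB1 (adjusted p = 0.0289) and PSAP (0.0152) in addition. Upper-quartile scaling added GLB1, HEXA and LIPA as lower.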
